A study of Mus musculus with 8 samples.

Results

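The enzymes described here are 9 genes of the tricarboxylic acid (TCA) cycle, Cs, Idh3a, Idh3b, Idh3g, Ogdh, Dlst, Suclg1, Fh1 and Mdh2, measured in mouse brown adipose tissue (BAT) after thoracic aortic constriction (TAC) or sham surgery. The genes were chosen by name, with earlier results of these data known. Every probe whose RefSeq accession belongs to 1 of them was taken, which gave 11 probes of the 55681 on the array. Ogdh had 3 probes and the other genes 1 each, and all 11 were among the 33364 probes bright enough to be tested. Those of the 33364 that carry a gene symbol stand for 14990 genes, which are meant below by all genes. The mice were male C57BL/6NCrSlc mice, housed at 23 °C on normal chow, operated on at 11 weeks of age and sampled at 13 weeks. TAC narrows the aorta and loads the left ventricle, and the sham group, written Sham, is its surgical control. No transgene or drug is given for either group. Each group holds 4 samples with 1 array each. By some of the labels BAT was taken 2 weeks after the operation, which fits the ages, and by others 4 weeks. They do not say that the samples came from different animals, so the p-values measure the spread between these samples.

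The TCA cycle runs in the mitochondrial matrix, where it oxidises acetyl groups from fatty acids and glucose and passes the electrons as NADH and FADH2 to the respiratory chain. Brown adipocytes are rich in mitochondria, and during thermogenesis their respiratory chain runs fast. Uncoupling protein 1 then lets protons back across the inner membrane, which gives heat instead of ATP. All cycle enzymes are encoded in the nucleus, and they are used by most other cell types, skeletal muscle among them.

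Values are log2 intensities relative to the 75th percentile of all spots of the same array, so that a level of 9 stands for a bright probe and a difference of -0.20 for a change in intensity of -13.1%, as measured for Cs. Scanner files of 7 arrays were used, Sham 2 to 4 and TAC 1 to 4, and Sham 1 was used from the authors' table of 8 arrays. The 75th percentile lay between 453.6 and 604.5 intensity units, and between 54.5% and 64.3% of spots were well above background. All 7 arrays lay on 1 slide, and neither of its 2 rows held both groups, so that place on the slide and surgery cannot be told apart. TAC 1 stood apart from the other arrays. Relative to Sham 2 to 4, its mean log2 level was -1.28 over 12 brown adipocyte markers and 0.88 over 10 macrophage markers. Where leaving it out moved a difference of an enzyme by over 1.5 times, both values are given.

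Levels of the 9 enzymes were lower on average after TAC, by small amounts. The log2 fold change of TAC over Sham was below 0 for 9 of 9 genes, against 55.1% of all genes, and it ranged from -0.33 for Mdh2 to -0.08 for Ogdh. The median of the 9 was -0.18, against -0.03 over all genes. None of the 11 probes passed an adjusted p of 0.05 in limma, and neither did any of the 33364 probes tested (0% called in either direction, smallest adjusted p 0.0575). At an unadjusted limma p under 0.05, 2 of the 9 genes were lower, Mdh2 and Fh1, and 0 were higher, where 8.06% of all genes were lower and 3.97% higher. Every TAC array lay below every Sham array for 4 of the 9 genes, Idh3g, Dlst, Fh1 and Mdh2, which held for 10.8% of all genes. Bright probes as a class also tended to be lower. Among the 372 genes at least as bright as the dimmest of the 9 enzymes, 72.0% were below 0, with a median of -0.11, and without TAC 1 these were 57.0% and -0.02.

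**Figure D1:**
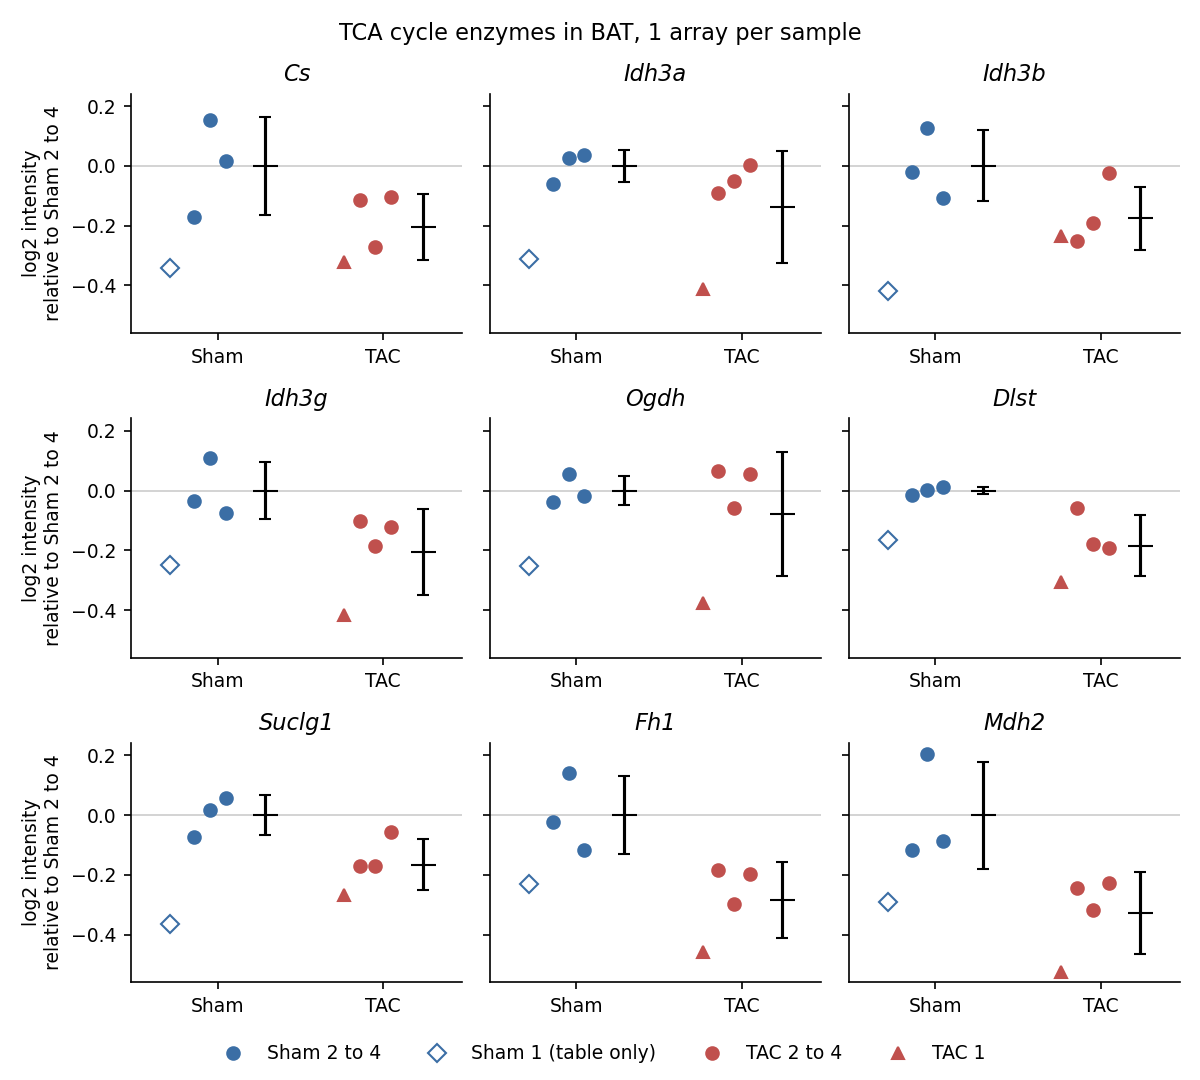
Each panel plots, for 1 enzyme, the log2 intensity of every array relative to the mean of Sham 2 to 4, with Sham on the left and TAC on the right; bars are the mean ± SD of the scanner arrays, and the open diamond is Sham 1, taken from the table of 8 arrays and set relative to Sham 2 to 4 in that table. TAC 1 is the lowest scanner array for 8 of 9 enzymes, Sham 1 lies below the other Sham arrays for 9 of 9, and the groups of scanner arrays separate for Idh3g, Dlst, Fh1 and Mdh2. The share of all genes with TAC 1 or Sham 1 lowest was not taken.

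The 2 genes with the largest differences encode the last steps of the cycle. Their promoters are printed here because they belong to these 2 genes, as the 250 bases before the RefSeq start in GRCm38.p6, written 5′ to 3′ on the gene's strand. In Mdh2 (chr5:135778399-135778648, plus strand) the capitals mark the cAMP response element TGACGTCA and the palindrome TCTCGCGAGA, the palindromic 10-base word repeated most often in any of the promoters. In Fh1 (chr1:175625636-175625885, minus strand) they mark the CCAAT box, found here on the opposite strand as ATTGG.
Mdh2: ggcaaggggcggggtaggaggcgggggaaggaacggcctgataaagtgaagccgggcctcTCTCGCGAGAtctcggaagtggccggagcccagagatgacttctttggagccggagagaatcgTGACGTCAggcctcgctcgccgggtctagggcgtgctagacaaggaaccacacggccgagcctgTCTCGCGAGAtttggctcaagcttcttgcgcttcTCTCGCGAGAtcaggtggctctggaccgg
Fh1: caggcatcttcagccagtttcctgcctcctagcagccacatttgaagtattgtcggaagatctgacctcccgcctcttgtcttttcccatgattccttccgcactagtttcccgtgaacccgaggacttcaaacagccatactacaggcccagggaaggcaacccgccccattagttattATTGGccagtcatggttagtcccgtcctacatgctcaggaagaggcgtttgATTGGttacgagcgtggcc
The Mdh2 window held TCTCGCGAGA 3 times, starting 190, 63 and 29 bases before the start, and TGACGTCA once, 127 bases before it. The Fh1 window held the CCAAT box 70 and 19 bases before the start. RefSeq promoter entries were found for 8 of the 9 genes, not for Idh3a, and 5 known motifs and TCTCGCGAGA were searched in them on both strands. There were 13 entries, of which Ogdh had 6, and a gene counted if any of its entries matched. The percentages are per single window, so that Ogdh had more chances to match than 1 window. The element of the estrogen-related receptors, TCAAGGTCA, matched in 0 of the 8 genes and in 0.387% of 32851 windows of the same length. The core of nuclear respiratory factor 1, GCGCANGCG, matched in Ogdh alone (5.16% of windows), and the ETS site CCGGAAG in Idh3g alone (6.91%). TGACGTCA matched in Mdh2 and Ogdh (1.55%). CCAAT matched in Cs, Idh3b, Ogdh and Fh1, or 4 of 8 genes (33.8%). TCTCGCGAGA, which was taken from the Mdh2 sequence itself, matched in Mdh2 alone (0.39%). No matches in the printed windows overlapped, and a match is a description of the sequence.

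Mdh2, the mitochondrial malate dehydrogenase that turns malate into oxaloacetate, had the largest difference of the 9. Its levels were 9.12, 9.44 and 9.15 on Sham 2 to 4 and 8.72, 9.0, 8.92 and 9.01 on TAC 1 to 4. All 4 TAC arrays lay below the 3 Sham arrays, with TAC 1 the lowest and Sham 3 the highest. The Sham mean was 9.24 ± 0.18 (SD, n = 3) and the TAC mean 8.91 ± 0.14 (SD, n = 4). Mdh2 thus had a log2 fold change of -0.33 (SE 0.12, 95% interval -0.61 to -0.04), which is -20.3% in intensity. In limma the unadjusted p was 0.0300 and the adjusted p 0.349, and permuting the 7 arrays (exact test, two-sided, 35 splits) gave p = 0.0286, the smallest it can give.

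Fh1, fumarate hydratase, makes the malate that Mdh2 uses. Levels were 7.32, 7.48 and 7.22 on Sham 2 to 4, and 6.88, 7.16, 7.04 and 7.14 on TAC 1 to 4. As for Mdh2, the groups did not overlap, and Sham 3 was the highest array and TAC 1 the lowest. The means were 7.34 ± 0.13 and 7.06 ± 0.13 (SD, n = 3 and 4). For Fh1 the log2 fold change was -0.28 (SE 0.11, 95% interval -0.54 to -0.03), or -17.9% in intensity. Its unadjusted limma p was 0.0330, its adjusted p 0.356 and its exact permutation p 0.0286.

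Citrate synthase, encoded by Cs, opens the cycle by joining acetyl-CoA to oxaloacetate, and its mRNA is bright in BAT. Its levels were 9.23, 9.55 and 9.42 on Sham 2 to 4 and 9.08, 9.28, 9.13 and 9.30 on TAC 1 to 4. The groups overlapped, since Sham 2 lay below TAC 2 and TAC 4. Cs had a log2 fold change of -0.20 (SE 0.11, limma adjusted p = 0.479) with an exact permutation p of 0.171.

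The NAD-dependent isocitrate dehydrogenase, the step that makes 2-oxoglutarate, consists of a catalytic alpha subunit (Idh3a) and the beta (Idh3b) and gamma (Idh3g) subunits. Idh3a was at 7.82, 7.91 and 7.92 on Sham 2 to 4 and at 7.47, 7.79, 7.83 and 7.89 on TAC 1 to 4. TAC 1 lay well below the rest, and TAC 3 and TAC 4 lay within the Sham range. It had a log2 fold change of -0.14 (SE 0.12) with TAC 1 and -0.05 without it. Idh3b was at 7.70, 7.85 and 7.62 on Sham 2 to 4 and at 7.49, 7.47, 7.53 and 7.70 on TAC 1 to 4. Only TAC 4 reached the Sham range, and Idh3b was the 1 enzyme for which TAC 2, not TAC 1, was the lowest array. Its log2 fold change was -0.18 (SE 0.10). Idh3g was at 9.12, 9.26 and 9.08 on Sham 2 to 4 and at 8.73, 9.05, 8.97 and 9.03 on TAC 1 to 4. Here the groups did not overlap, but TAC 2 came close to Sham 4. Idh3g had a log2 fold change of -0.21 (SE 0.11), or -0.14 without TAC 1, and its limma adjusted p was 0.461, against 0.637 for Idh3a and 0.490 for Idh3b. Exact permutation p-values were 0.229 for Idh3a, 0.0857 for Idh3b and 0.0571 for Idh3g.

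Ogdh and Dlst encode the first 2 components of the 2-oxoglutarate dehydrogenase complex, which makes succinyl-CoA. The brightest Ogdh probe, A_55_P2006281, which stands for the gene, was at 8.70, 8.80 and 8.72 on Sham 2 to 4 and at 8.36, 8.80, 8.68 and 8.80 on TAC 1 to 4. TAC 2 and TAC 4 were at or above the highest Sham array, and TAC 1 lay far below the rest. On this probe the log2 fold change was -0.08 (SE 0.13) and turned to 0.02 without TAC 1. A second bright probe, A_55_P2006280, was at 8.76, 8.88 and 8.78 on Sham 2 to 4 and at 8.36, 8.72, 8.63 and 8.72 on TAC 1 to 4. On it the groups of arrays did not overlap, with a log2 fold change of -0.20 (SE 0.11), or -0.12 without TAC 1. The third and dim probe, A_55_P2006277, was at 1.96, 2.31 and 2.01 on Sham 2 to 4 and at 2.32, 1.87, 1.70 and 1.84 on TAC 1 to 4. Here TAC 1 was the highest array and not the lowest, and the log2 fold change was -0.16 (SE 0.17), or -0.29 without TAC 1. The limma adjusted p of the 3 probes was 0.808, 0.490 and 0.706. Dlst, the succinyltransferase core, was at 6.97, 6.98 and 6.99 on Sham 2 to 4 and at 6.67, 6.92, 6.80 and 6.79 on TAC 1 to 4. The 3 Sham arrays lay close together (SD 0.013), and all 4 TAC arrays were below them. Dlst had a log2 fold change of -0.18 (SE 0.09, limma adjusted p = 0.426) with an exact permutation p of 0.0571.

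Suclg1, the alpha subunit shared by both succinyl-CoA ligases, was at 7.92, 8.0 and 8.05 on Sham 2 to 4 and at 7.72, 7.82, 7.82 and 7.93 on TAC 1 to 4. TAC 4 alone reached into the Sham range. Its log2 fold change was -0.17 (SE 0.09, limma adjusted p = 0.461) with an exact permutation p of 0.0857.

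The 95% intervals of the 9 enzymes overlapped, and differences between enzymes were not tested. The 9 enzymes were also read by array. All 9 were below every Sham scanner array on TAC 1, 8 of 9 on TAC 3, 7 of 9 on TAC 2 and 4 of 9 on TAC 4. The share of all genes was not taken for these counts, so they are not read as particular to the enzymes. Their mean relative to Sham 2 to 4 was -0.37 on TAC 1, -0.13 on TAC 2, -0.19 on TAC 3 and -0.10 on TAC 4, and it was -0.06, 0.09 and -0.03 on Sham 2 to 4. Without TAC 1, 8 of 9 genes were below 0 (53.2% of all genes), the median was -0.14, and 0 of 9 were lower at an unadjusted limma p under 0.05 (8.01% of all genes). Mdh2 was then at -0.26 and Fh1 at -0.23. No further enzyme had separate groups without TAC 1, beside the 4 that had to keep them, and 13.1% of all genes did.

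Sham 1, measured in the table of 8 arrays, was on the side of the TAC arrays. It was the lowest Sham array for 9 of 9 enzymes, by 0.16 to 0.42 log2 units from the mean of the other 3, and the lowest of all 8 arrays for Cs, Idh3b and Suclg1. The share of all genes was not taken for these counts. The means of the other metabolic lists were also below Sham 2 to 4 on Sham 1, from -0.22 (pyruvate dehydrogenase) to -0.14 (genes that feed or drain the cycle). On the scale of that table Mdh2 was at 9.15 on Sham 1, against 9.33, 9.63 and 9.34 on Sham 2 to 4 and 8.90, 9.17, 9.10 and 9.18 on TAC 1 to 4. Fh1 was at 7.31 on Sham 1, against 7.52, 7.67 and 7.42 on Sham 2 to 4 and 7.07, 7.33, 7.22 and 7.32 on TAC 1 to 4. For both genes Sham 1 fell among the TAC arrays. With Sham 1 included, 9 of 9 genes were still below 0 (57.3% of all genes), with a median of -0.13, but no enzyme had every TAC array below every Sham array, against 6.51% of all genes. Fh1 alone was lower at an unadjusted limma p under 0.05 (-0.24, against 8.9% of all genes), and Mdh2 was at -0.27. Exact permutation p-values over the 70 splits of 8 arrays were 0.0857 for Fh1 and 0.0857 for Mdh2. With Sham 1 in and TAC 1 out, the median was -0.09, Ogdh was at 0.07, Idh3a at 0.01 and 0 of 9 genes were lower (8.16% of all genes). The scaling between arrays moved these values too. After quantile normalization the median of the 9 was -0.06, with 8 of 9 below 0 (51.1% of all genes), 0 of 9 lower at an unadjusted limma p under 0.05 (7.69%) and Ogdh at 0.08, and the 372 bright genes had a median of 0.01.

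**Figure D2:**
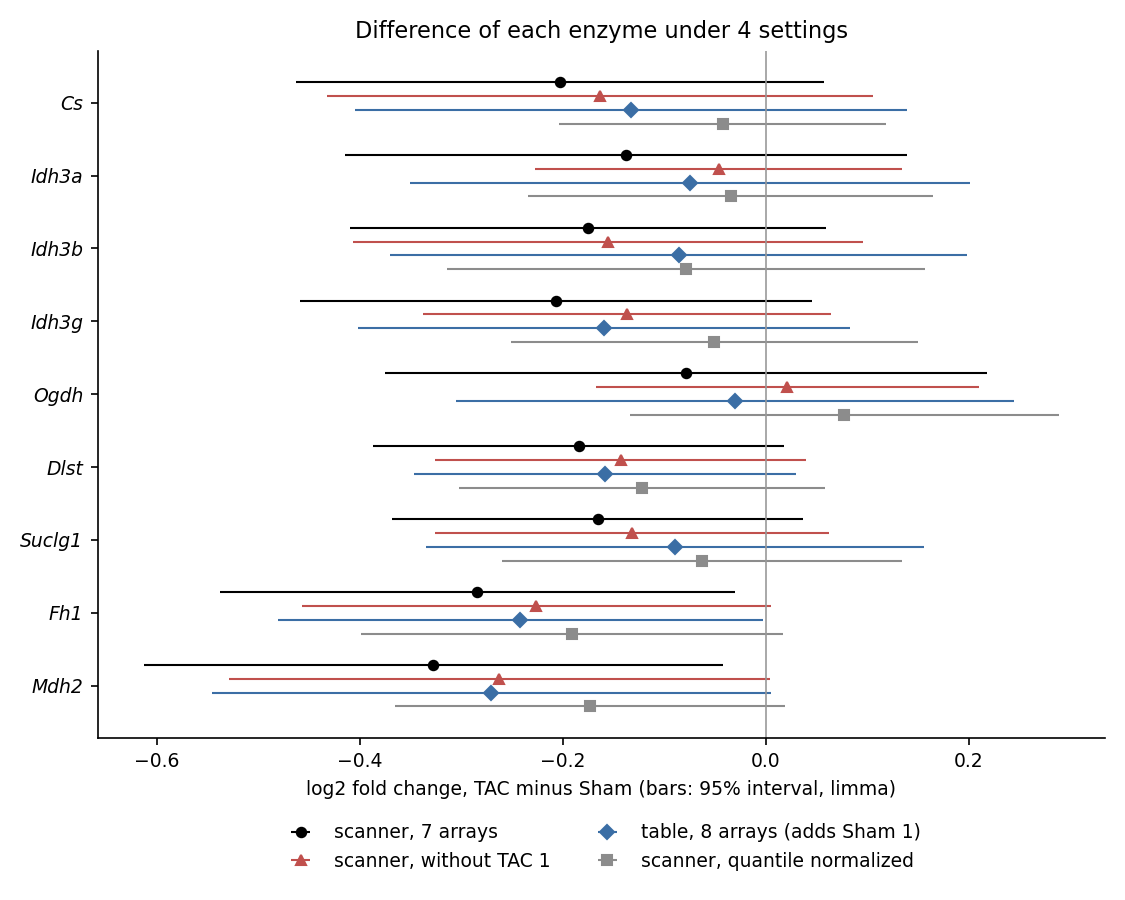
For each enzyme, the log2 fold change (TAC minus Sham) is plotted with its 95% interval from limma for the 7 scanner arrays, the scanner arrays without TAC 1, the table of 8 arrays and the quantile-normalized scanner arrays. Intervals of Mdh2 and Fh1 end below 0 with 7 scanner arrays (-0.04 and -0.03), that of Fh1 also in the table, and those of the other 7 enzymes cross 0 in each of the 4 settings.

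The 7 further cycle enzymes analysed gave a similar picture. Of these, 6 were below 0 (55.1% of all genes), with a median of -0.20. At an unadjusted limma p under 0.05, 2 were lower and 0 higher (8.06% and 3.97% of all genes). For 5 of them every TAC array lay below every Sham array (10.8% of all genes). With Sham 1 included only 1 of the 7 had separate groups (6.51% of all genes). After quantile normalization 1 was lower (7.69%) and 1, Sucla2, higher (5.16%). Dld, the dihydrolipoamide dehydrogenase that completes the complex of Ogdh and Dlst and also serves pyruvate dehydrogenase, was at 5.98, 6.07 and 5.93 on Sham 2 to 4 and at 5.44, 5.71, 5.68 and 5.75 on TAC 1 to 4. Its groups of scanner arrays were apart with and without TAC 1. The log2 fold change was -0.35 (SE 0.10, limma adjusted p = 0.279), with -0.36 on its other probe. In the table of 8 arrays Dld was at -0.37 on Sham 1 relative to Sham 2 to 4, and its log2 fold change was -0.27. The 4 subunits of succinate dehydrogenase, which feeds Fh1, were at -0.28 (Sdha), -0.18 (Sdhb), -0.12 (Sdhc) and -0.27 (Sdhd, SE 0.09, limma adjusted p = 0.327). Of the beta subunits that pair with Suclg1, Suclg2 of the GTP-forming ligase was at -0.20 and Sucla2 of the ATP-forming ligase at 0.04 (0.07 without TAC 1).

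**Figure D3:**
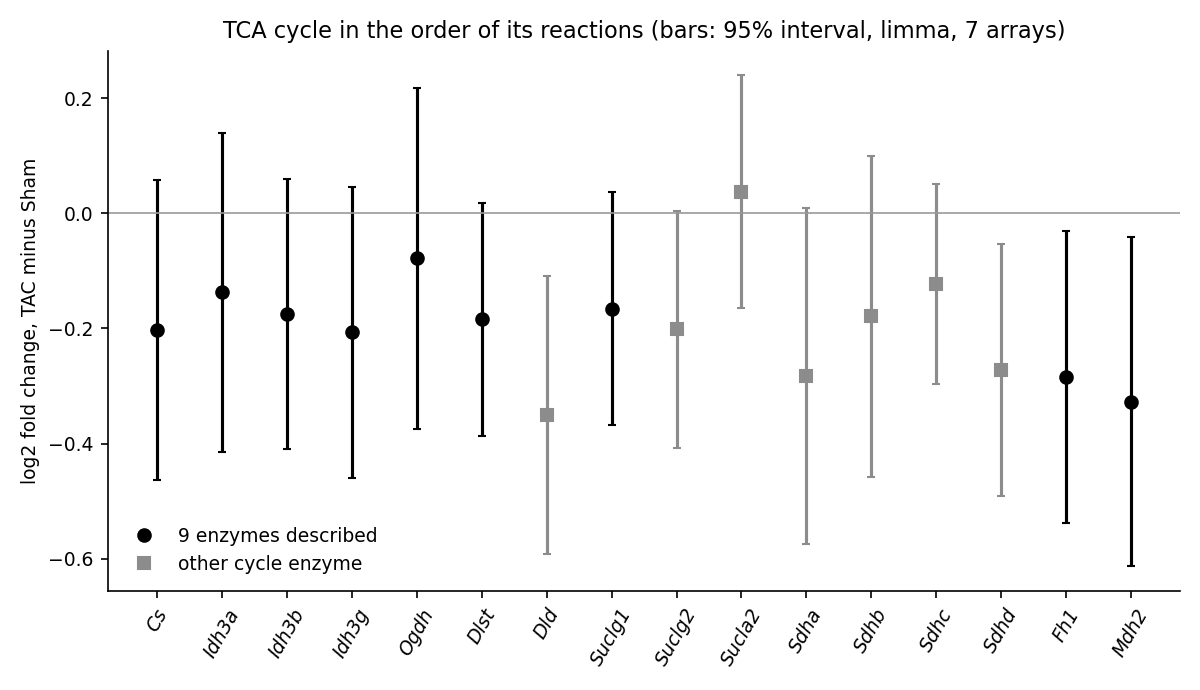
Log2 fold changes (TAC minus Sham, 7 scanner arrays, bars the 95% interval from limma) of the 9 enzymes (black circles) and 7 further cycle enzymes (grey squares) are set in the order of the reactions. Sucla2 (0.04) and Ogdh (-0.08) lie nearest to 0, and Dld (-0.35) and Mdh2 (-0.33) lie lowest.

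Genes that feed the cycle or draw from it spread more widely. Of 27, 26 had a tested probe, with none matched for Nnt, and 17 were below 0, against 55.1% of all genes. At an unadjusted limma p under 0.05, 6 were lower and 2 higher (8.06% and 3.97% of all genes). The largest differences were in genes that carry citrate and malate to fatty acid synthesis in the cytosol. Acly, the ATP citrate lyase, was at 7.25, 8.16 and 7.92 on Sham 2 to 4 and at 5.57, 6.32, 5.56 and 6.14 on TAC 1 to 4, a log2 fold change of -1.88 (SE 0.28, limma adjusted p = 0.196). Me1, the cytosolic malic enzyme, was at -1.88 (SE 0.41) and Slc25a1, the mitochondrial citrate carrier, at -1.47 (SE 0.30). For Acly, Me1 and Slc25a1 every TAC array lay below every Sham array, as for 10.8% of all genes. Mdh1, the cytosolic counterpart of Mdh2, was at 7.25, 7.47 and 7.27 on Sham 2 to 4 and at 6.96, 6.97, 6.85 and 6.91 on TAC 1 to 4. Its log2 fold change was -0.40 (SE 0.09, limma adjusted p = 0.199) with TAC 1 and -0.42 without it, so that it did not depend on this array. In the table of 8 arrays Mdh1 was at -0.36 on Sham 1 relative to Sham 2 to 4, and its log2 fold change was -0.33. Pcca, a subunit of propionyl-CoA carboxylase, was at -0.44 (SE 0.15), and Slc25a10, the dicarboxylate carrier, at -0.39 (SE 0.13). The 2 higher genes make 2-oxoglutarate in mitochondria by other routes than Idh3. Idh2, the NADP-dependent isocitrate dehydrogenase, was at 7.47, 7.67 and 7.54 on Sham 2 to 4 and at 7.88, 7.82, 7.82 and 7.90 on TAC 1 to 4. Its log2 fold change was 0.30 (SE 0.08, limma adjusted p = 0.268), where those of the 3 Idh3 genes were below 0. Glud1, glutamate dehydrogenase, was at 0.27 (SE 0.08, limma adjusted p = 0.268), and for both genes every TAC array lay above every Sham array, as for 5.36% of all genes.

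In the list of pyruvate dehydrogenase, which supplies acetyl-CoA to Cs, with its kinases, its phosphatases and the pyruvate carrier, 7 of 12 genes were lower at an unadjusted limma p under 0.05, 0 were higher, and the median was -0.45 (-0.34 without TAC 1). Pdhb, the beta subunit of its first component, was at -1.07 (SE 0.17), the kinase gene Pdk1 at -0.66 (SE 0.11) and Pdha1 at -0.44 (SE 0.11). In fatty acid oxidation 3 of 19 genes were lower and 0 higher, with a median of -0.18. In the respiratory chain 6 of 38 were lower and 0 higher, with a median of -0.21 and 37 of 38 below 0. These shares stand beside 8.06% of all genes lower, 3.97% higher and 55.1% below 0. Both medians were smaller in other settings. Without TAC 1 the median was -0.10 for fatty acid oxidation and -0.10 for the respiratory chain. In the latter 32 of 38 genes were then below 0 (53.2% of all genes). After quantile normalization both medians were -0.08, with 25 of 38 respiratory chain genes below 0 (51.1% of all genes).

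The tissue carried the markers of its label. All 12 brown adipocyte markers had a tested probe, and 10 were below 0 (55.1% of all genes). The list median was -0.19, near that of the TCA enzymes, but the markers did not move alike. They ran from -2.48 for Elovl3 to 0.18 for Adipoq, with Pparg at 0.10, Cox8b at -0.06 and Cidea at -0.11. Elovl3 was at -3.78 on TAC 1, against 1.57, 2.06 and 1.62 on Sham 2 to 4. Ucp1, the uncoupling protein, was at 9.40, 9.70 and 9.53 on Sham 2 to 4 and at 8.37, 9.22, 9.17 and 8.97 on TAC 1 to 4, a log2 fold change of -0.61 (SE 0.21, limma adjusted p = 0.336). Without TAC 1 the log2 fold change was -1.47 for Elovl3 and -0.42 for Ucp1. The mean of the list relative to Sham 2 to 4 was between -0.14 and 0.18 on the Sham arrays and -1.28, -0.28, -0.09 and -0.53 on TAC 1 to 4. In bulk tissue, fewer brown adipocytes and less RNA per cell cannot be told apart. All 13 skeletal muscle markers were measured too, and their list mean was between -0.89 and 0.85 on Sham 2 to 4 and 1.62, 1.20, -0.56 and 1.51 on TAC 1 to 4. None of them passed an unadjusted limma p of 0.05, since the arrays of each group lay far apart. TAC 3, with the lowest muscle mean of the TAC arrays, had a mean of -0.19 over the 9 enzymes. Sham 1, from the table of 8 arrays, had a muscle mean of 0.98 and a mean of -0.29 over the 9 enzymes. All 10 macrophage markers were measured, with a list mean from -0.16 to 0.23 on Sham 2 to 4, 0.88 on TAC 1 and -0.51 to -0.15 on the other TAC arrays. Of 7 lymphocyte markers 5 were tested, and their mean was 0.80 on TAC 1, against -0.33 to -0.09 on TAC 2 to 4. Cd79a and Ms4a1 had no tested probe. Means over 6 fibroblast markers (0.56 on TAC 1, -0.29 to 0.03 on TAC 2 to 4, -0.24 to 0.13 on Sham 2 to 4), 6 endothelial markers (0.06 to 0.21 on the TAC arrays, -0.06 to 0.04 on Sham 2 to 4) and 3 erythroid markers (-0.59 to 0.16 on the TAC arrays, -0.28 to 0.53 on Sham 2 to 4) were taken the same way. On Sham 1 in the table, the mean was -0.20 for brown adipocyte, 0.05 for macrophage and 0.46 for lymphocyte markers. It was 0.12 for fibroblast, 0.14 for endothelial (within the range of the TAC arrays) and -0.79 for erythroid markers. The part of these cell types in the differences of the TCA enzymes was not tested.

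**Figure D4:**
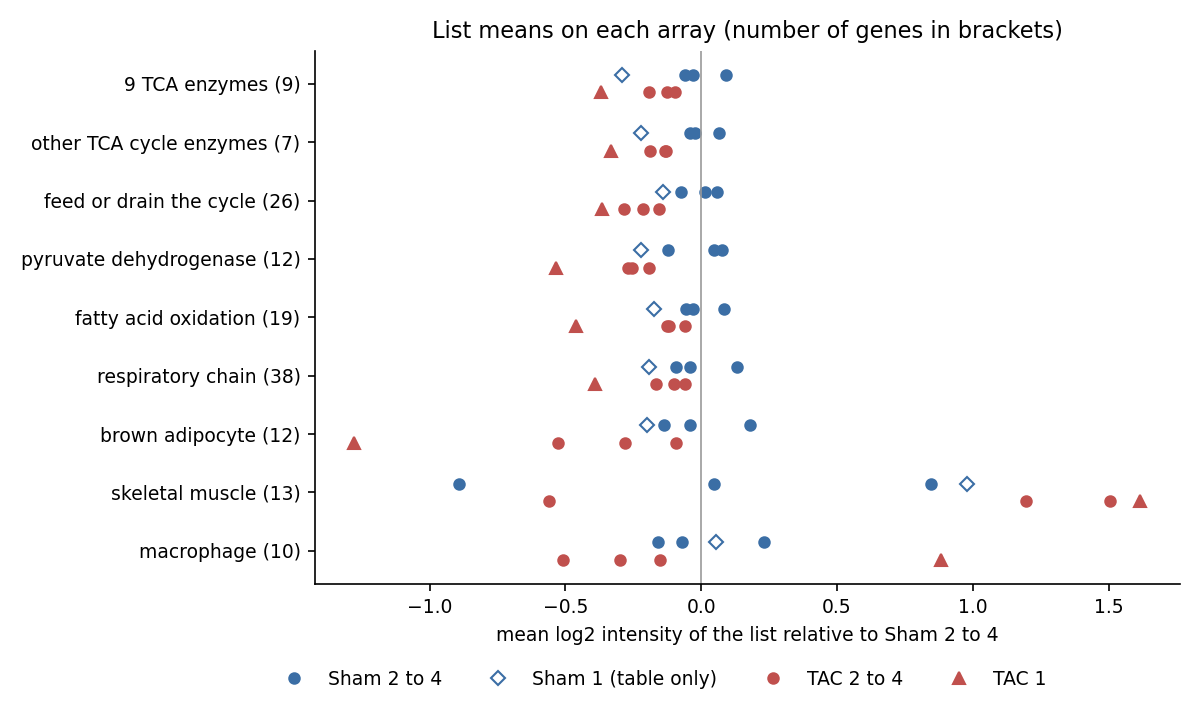
For each gene list, the mean log2 intensity relative to Sham 2 to 4 is plotted for every array, Sham in blue and TAC in red, with TAC 1 as a triangle and Sham 1, from the table, as an open diamond. The 9 TCA enzymes (-0.37 to -0.10 on the TAC arrays) spread little, while brown adipocyte markers reach -1.28 on TAC 1 and muscle markers run from -0.89 to 1.62.

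The genes most like the TCA enzymes were looked for by the root mean square difference between centred log2 profiles over the 7 arrays. Among 14976 other genes, Hps5, Actr10, Churc1, Slu7 and Phka2 were nearest to the mean profile of the 9, at 0.02 to 0.03 log2 units. The likeness holds for the brightest probe of each gene, since a second tested probe of Hps5 had a log2 fold change of -0.78, against -0.19 for the probe used, and one of Phka2 -0.44, against -0.21. Idh3g would have ranked 16 in that order and was the most typical of the 9, and the other 8 enzymes lay 0.06 to 0.08 from their mean. These 8 would have ranked from 381 (Suclg1) to 1237 (Mdh2), although the mean includes them, so many other genes lay nearer to it. The profile itself was shallow, from 0.20 on Sham 3 to -0.26 on TAC 1.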

How the data were processed

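BAT RNA was labelled with Cy3 and hybridized to 1-colour Agilent arrays, and the authors extracted spots with Agilent Feature Extraction 10.7.1.1, per the labels. The deposited scanner intensity values are background-subtracted, linear and not scaled between arrays. The authors' deposited table of 8 arrays is also an intensity, which on 7 arrays was the scanner value times a constant, to within 1%. Outlier spots (134 to 191 per array) were left out, log2 intensity minus the array's 75th percentile was taken over 59305 spots, and spots of a probe were averaged. Symbols came from RefSeq (GRCm38.p6), which named 28026 probes (50.3%). The test took probes that 3 or more arrays showed well above background, with 2 or more measured per group. The brightest probe stood for a gene. The test was limma (version 3.58.1, R 4.3.3; lmFit, then eBayes), checked on simulated data, and p-values were adjusted by Benjamini-Hochberg over 33364 probes. Each enzyme and probe was named, as were 7 further cycle enzymes, up to 8 cycle feeders under an unadjusted p of 0.05, up to 3 genes of each further list and the 5 nearest profiles. The members and lists were chosen with earlier results of these data known. The number of arrays limits the precision. A few genes are not reported here. These arrays are not described in the text of the paper.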

Additional observations from a re-analysis of the deposited data

Results flagged for a closer look

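In 22 groups of 4 arrays, made of the 11 probes in each of TAC (scanner values) and Sham (table), 1 array lay far from the other 3. Dlst was at 7.01 on Sham 1 in the table of 8 arrays, where the other 3 Sham arrays were between 7.17 and 7.18, so that the gap took up 0.934 of the range of the group. About 1 in 20 such groups is expected to stand out by chance.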

How the results depend on the processing

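Of 189 values of the 9 enzymes under 21 alternatives, 184 kept their direction and 5 turned, and 0 member probes passed an adjusted p of 0.05 under any of them (smallest 0.261). Some alternatives change the test or the filter but not the values: the intensity trend, the t-test, no filter on dim probes, and a filter on every array. Their fold changes could not turn, so the count of 184 includes values fixed in advance. Ogdh turned to 0.078 with quantile normalization, 0.066 in the table without TAC 1, and 0.021 both with the replicate block and without TAC 1 (-0.13 to 0.021 with single arrays left out), and Idh3a to 0.013 in the table without TAC 1. Sdhb turned to 0.0084 with quantile normalization. The number of enzymes lower at an unadjusted p under 0.05, 2 as reported, was 5 with normexp, 4 with the methods' t-test, 1 in the table of 8 arrays, 1 with no filter on dim probes, and 0 with quantile normalization, the replicate block or the table without TAC 1. Of all genes, 8.06% were lower as reported and 9.58% with normexp. Of the 372 bright genes, these were 11.8% and 20.2%. In the table of 8 arrays 8.9% of all genes were lower, without TAC 1 there 8.16%, and with quantile normalization 7.69%. No such share is given for the t-test, the lack of a filter, the replicate block or the leaving out of single arrays other than TAC 1. The counts of enzymes in those settings are therefore not set against all genes. The number of lower enzymes was 0 to 3 with single arrays left out, 0 without Sham 3, TAC 1 or TAC 3. The median was -0.063 with quantile normalization and -0.23 to -0.14 with single arrays left out. Over all probes, 1 passed the adjusted p with normexp and 1 with median centring, and 0 to 8 with single arrays left out, 8 without TAC 4. The cause of these shifts was not tested. Whether replicate numbers pair the arrays was not settled. After each group mean was taken off, same-numbered arrays correlated at 0.0017, -0.026 and -0.021 in the scanner values. By the same measure, Sham 1 and TAC 1 correlated at 0.27 in the table and the other 3 pairs at 0.020 to 0.056. Arrays with different numbers were not compared in this way. The block on 7 arrays also uses up TAC 1, which has no partner. With the block the median was -0.14.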
